A study of Mus musculus with 48 samples.

Results

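Transthyretin (Ttr, Entrez gene 22139, mouse chromosome 18) was examined in kidneys of Hyp and normal mice through every probe set annotated to it, which gave 4 probe sets of 45137 that were not controls, or 1 gene of 18193 named. The gene was chosen by its genotype, diet and genotype by diet differences in these same pools, so those values are given as a description with no test. Sex, and the interactions of sex with genotype and diet, were not used to choose it and were tested. The study hybridised RNA of 24 whole-kidney pools to a pair of Affymetrix chips, 430A and 430B, giving 48 arrays. Each pool held kidneys of 3 mice aged 10 weeks, so 72 mice stood behind 8 groups of 3 pools. The groups were normal males, normal females, Hyp males and Hyp females, each fed for 3 days either a control phosphate diet (TD86129) or a low phosphate diet (TD86128). One label names the C57BL/6J strain, and the labels do not say whether the Hyp females carried 1 or 2 mutant copies.

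Transthyretin is a secreted protein that carries thyroxine in plasma and, through retinol-binding protein, vitamin A. Liver and the choroid plexus of the brain are its best known sources, and the proximal tubule takes filtered transthyretin back up through the receptor megalin. Hyp mice carry a mutation that inactivates Phex on the X chromosome, which leads to excess circulating FGF23, renal phosphate wasting and low plasma phosphate, while a low phosphate diet lowers plasma phosphate without that mutation.

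The kidney label was borne out by the segment markers. Umod, the main secreted protein of the thick ascending limb, lay between 18730 and 24712 signal units over the 24 pools, and Slc34a1, the main phosphate transporter of the proximal tubule, between 9785 and 18724. Xist, the RNA of the inactive X chromosome (probe set 1427262_at), lay between 1780.2 and 3404.5 in the 12 female pools and between 2.3 and 50.4 in the 12 male pools, so the labels of sex fit on all 24 of the 430A arrays. On the 430B arrays the sex labels were not checked in this way, since the Y-linked Eif2s3y was dim there and overlapped, at 2.1 to 29.7 in females and 5.0 to 34.6 in males. Phex itself was too dim to check the genotype: its 2 probe sets stayed at or below 49.8 in normal and 30.4 in Hyp pools, under the lowest array median of 164.6 on the 430A chip. Values are the deposited signal intensities. Arrays of a chip had medians from 164.6 to 211.2 on 430A and from 50.9 to 68.3 on 430B, and the number of arrays limits the precision. Whether the 3 pools of a group were handled separately after pooling is not stated, so p-values refer to the spread between these pools.

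Of the 4 probe sets, 1451580_a_at, 1454608_x_at and 1455913_x_at are on the 430A chip and 1459737_s_at is on the 430B chip, a separate array hybridised for each pool. The letters before "_at" are the manufacturer's marks of specificity: x and s mark probes that can also match transcripts of other genes, while a marks probes that match several transcripts of 1 gene. All 4 passed the filter on dim probe sets, which asked for a signal above the array's median in at least 3 of the 24 pools. The 430B probe set therefore gave a reading of the same pools from a second hybridisation.

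Ttr was higher in Hyp than in normal kidneys on both diets and in both sexes, lower on the low phosphate diet than on the control diet, and higher in males than in females. In the brightest probe set, 1454608_x_at, the mean signal ran from 718.2 ± 18.0 (SD, n = 3) in normal females on the low phosphate diet to 26990 ± 3360 (SD, n = 3) in Hyp males on the control diet. In a whole-kidney pool, fewer cells of a type and less RNA per cell cannot be told apart.

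The 3 normal female pools on the low phosphate diet gave 1454608_x_at signals of 698.5, 733.6 and 722.6. Normal males on that diet gave 2460.2, 1724 and 1754, with a mean of 1979 ± 417 (SD, n = 3). Both sexes were higher on the control diet, where normal females gave 2768, 2446 and 3752 (2989 ± 681, SD, n = 3). Normal males on the control diet gave 7208, 5675 and 5596 (6159 ± 909, SD, n = 3), the highest of the normal groups. Even these lay below every Hyp pool. Hyp females on the low phosphate diet, the dimmest Hyp group, gave 12419, 11015 and 9924 (11120 ± 1250, SD, n = 3). Hyp females on the control diet gave 22371, 20586 and 17959 (20310 ± 2220, SD, n = 3). Hyp males on the low phosphate diet, at 24390.1, 17835 and 20330.4 (20850 ± 3310, SD, n = 3), overlapped with these Hyp females on the control diet. Hyp males on the control diet gave 24742, 25361 and 30855, the highest group, though its lowest pool stood only just above the 24390.1 of the highest Hyp male pool on the low phosphate diet.

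The 430B array of the same pools gave the same picture. For 1459737_s_at the 3 normal female pools on the low phosphate diet read 598.9, 597.7 and 748.7, and the 3 normal males on that diet read 1574, 1207 and 1436. On the control diet normal females read 1718, 1905 and 2611, and normal males read 5206, 4398 and 4372. Normal pools on the low phosphate diet were again below normal pools of the same sex on the control diet, without overlap. Hyp females on the low phosphate diet read 9166, 10138 and 9474, and on the control diet 16939, 16068 and 17872. Hyp males read 18330, 15244 and 17154 on the low phosphate diet and 19142, 19943 and 22231 on the control diet. All 12 Hyp pools stood above all 12 normal pools.

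The other 430A probe sets covered as wide a range. Group means of 1451580_a_at ran from 387.4 ± 34.7 (SD, n = 3) in normal females on the low phosphate diet to 18170 ± 3680 (SD, n = 3) in Hyp males on the control diet. For 1455913_x_at the same groups marked the ends, at 311.3 ± 30.8 and 12990 ± 1420 (SD, n = 3 each). Across the 12 Hyp pools 1451580_a_at lay between 5209 and 22396 with a median of 11566, and across the 12 normal pools between 354.1 and 2633 with a median of 1069. For 1455913_x_at the Hyp pools lay between 4181 and 13966 with a median of 9928, and the normal pools between 278.9 and 3072 with a median of 916.7.

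From highest to lowest mean, the order of the 8 groups was nearly the same in the 4 probe sets. Hyp males on the control diet came first. Below the other Hyp groups stood Hyp females on the low phosphate diet, and below them normal males on the control diet, normal females on the control diet, normal males on the low phosphate diet and normal females on the low phosphate diet. The places between the first and the last of the Hyp groups, held by Hyp females on the control diet and Hyp males on the low phosphate diet, changed hands between probe sets, and these 2 groups overlapped in all 4. Their means were within 1.11-fold of each other. Other neighbours that overlapped were Hyp males on the 2 diets in 1455913_x_at, and normal females on the control diet and normal males on the low phosphate diet in 1454608_x_at and 1455913_x_at.

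**Figure D1:**
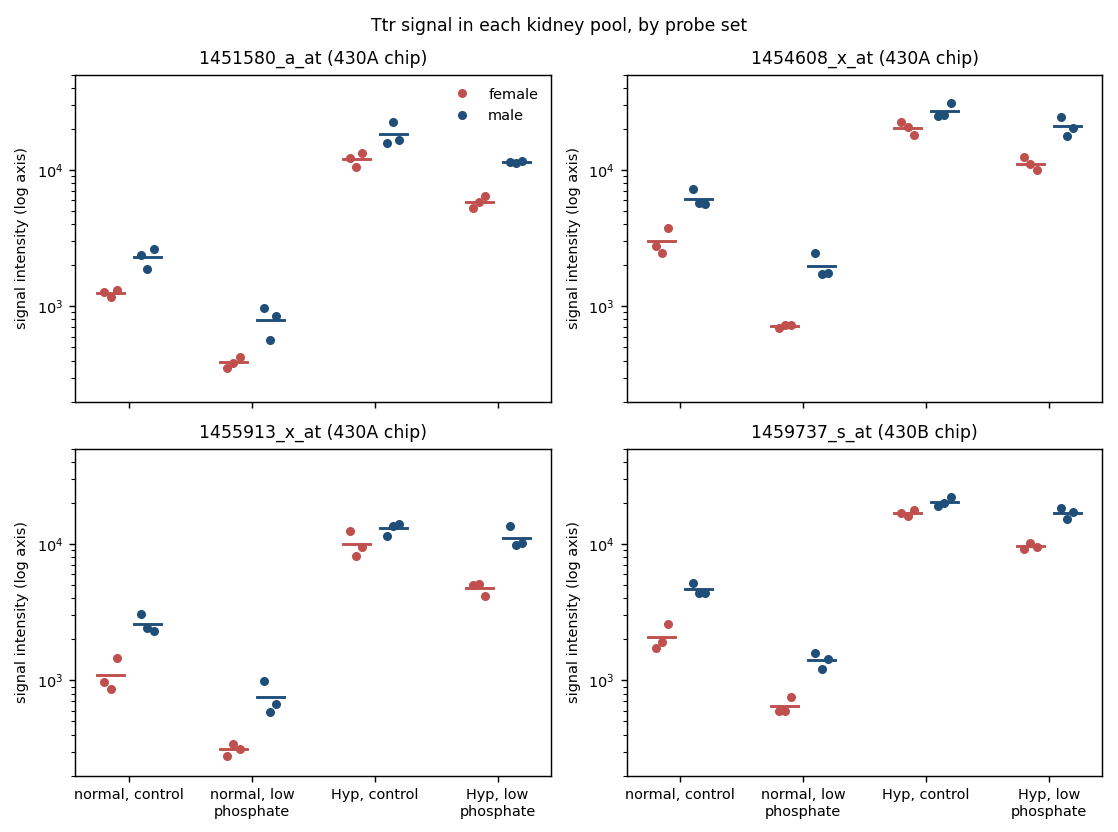
Signal intensity of Ttr (log axis) in each of the 24 kidney pools for the 4 probe sets; points are pools, bars are means of 3 pools, red females and blue males. Hyp pools stand above all normal pools in every panel, from 9924 up against 7208 down for 1454608_x_at, and males stand above females in each block except for an overlap in Hyp mice on the control diet for 1455913_x_at.

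The genotype difference was wide in every combination of diet and sex. Averaged over the other factors on the log2 scale, Hyp minus normal was 3.51 ± 0.09 (SE, 24 pools) for 1451580_a_at, 3.07 ± 0.09 for 1454608_x_at, 3.34 ± 0.11 for 1455913_x_at and 3.17 ± 0.08 for 1459737_s_at, or 8.38-fold to 11.4-fold. Of 27926 probe sets kept on the 2 chips, 0.852% were called higher in Hyp (limma, Benjamini-Hochberg adjusted p under 0.05). The 4 Ttr probe sets held ranks 1 to 4 by the size of the genotype difference, and since this contrast chose the gene, nothing is read from that.

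Where Ttr was dimmest, the probe sets gave nearly the same genotype ratio, and where it was brightest they spread apart. In females on the low phosphate diet the Hyp mean was 15.1, 15.5, 15.3 and 14.8 times the normal mean for 1451580_a_at, 1454608_x_at, 1455913_x_at and 1459737_s_at. On the log2 scale these differences spanned 0.05, less than the SE of any of them, which was 0.17 to 0.21. In males on the control diet the ratios were 7.94, 4.38, 4.98 and 4.39, and the log2 differences spanned 0.85, from 2.13 in 1454608_x_at to 2.99 in 1451580_a_at. The other 2 combinations lay between, with spans of 0.47 in females on the control diet and 0.51 in males on the low phosphate diet. All 16 comparisons of Hyp with normal pools, 4 combinations in each of 4 probe sets, were free of overlap. The 4 probe sets read the same RNA, so the 16 are not separate observations.

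The low phosphate diet went with lower Ttr. Low phosphate minus control was -1.23 ± 0.09 (SE) for 1451580_a_at, -1.23 ± 0.09 for 1454608_x_at, -1.23 ± 0.11 for 1455913_x_at and -1.12 ± 0.08 for 1459737_s_at on the log2 scale. Of the 27926 probe sets 0.326% were called lower on the low phosphate diet in the same fit, a contrast that also chose the gene. In normal females the control mean was 3.20 to 4.16 times the low phosphate mean, and in normal males 2.88 to 3.48 times. In Hyp females it was 1.77 to 2.11 times, and in Hyp males 1.17 to 1.58 times. The Hyp males showed the smallest ratio in each probe set, and in 1455913_x_at their diets overlapped: 11365 to 13966 on the control diet and 9749 to 13499 on the low phosphate diet. That was the 1 overlap among 16 comparisons of diets.

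On the log2 scale the diet difference was smaller in Hyp than in normal mice. The genotype by diet difference, the diet effect in Hyp minus that in normal mice, was 0.78 ± 0.17 (SE) in 1451580_a_at, 1.22 ± 0.17 in 1454608_x_at, 1.16 ± 0.21 in 1455913_x_at and 1.15 ± 0.17 in 1459737_s_at. Of all 27926 probe sets 0.0143% were called for this interaction. The median over all probe sets of the 430B chip was 0.12 for this contrast, beside 1.15 for 1459737_s_at. With each array scaled to its median that chip's median became -0.07 and 1459737_s_at 0.96.

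In signal units the same interaction had the opposite sign. The fall with the low phosphate diet in 1454608_x_at was 2270.0 in normal females and 4180.0 in normal males, but 9186 in Hyp females and 6134 in Hyp males. In 1459737_s_at the falls were 1430.0, 3253, 7367 and 3529 in the same order. The Hyp fall exceeded the normal fall in both sexes in all 4 probe sets, although by only 1873 against 1858 in males for 1455913_x_at. Averaged over sex, the difference of differences was -5250.0 for 1451580_a_at, -4435 for 1454608_x_at, -2258 for 1455913_x_at and -3107 for 1459737_s_at. The log2 scale compares ratios and the signal scale compares amounts, so the direction of the interaction depends on which of these is asked about.

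**Figure D2:**
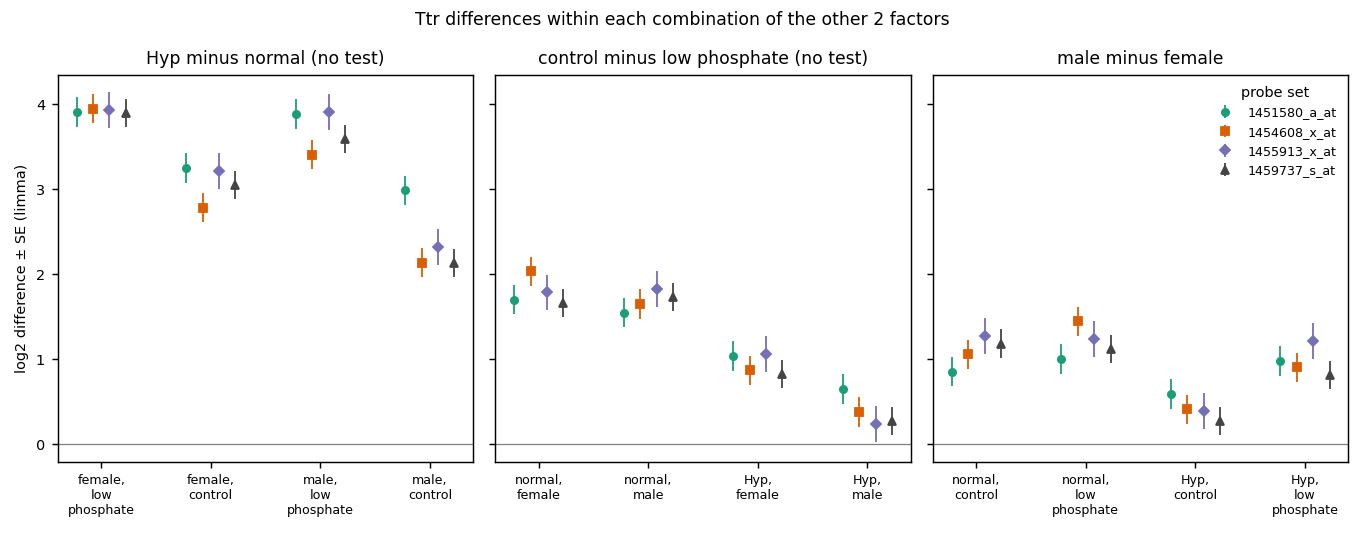
Log2 differences in Ttr (y axis, limma estimate ± SE) for genotype, diet and sex within each combination of the other factors, 1 symbol per probe set. The genotype differences of the 4 probe sets lie within 0.05 of each other in females on the low phosphate diet and 0.85 apart in males on the control diet; genotype and diet are shown without a test.

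The sex contrast was not used to choose the gene, although the choice was made with earlier results of these data known. Ttr was higher in male than in female kidneys, by 0.86 ± 0.09 (SE) on the log2 scale in 1451580_a_at, 0.95 ± 0.09 in 1454608_x_at, 1.03 ± 0.11 in 1455913_x_at and 0.85 ± 0.08 in 1459737_s_at, or 1.80-fold to 2.04-fold. The adjusted p-values over all 27926 probe sets were 3.61e-07, 5.5e-08, 3.9e-07 and 4.59e-07 (limma, Benjamini-Hochberg). All 4 probe sets were called higher in males, against 5.96% of all probe sets. Sex differences were common in these kidneys: 14.6% of probe sets were called in either direction, of which 40.7% were higher in males. That split was 66.6% with arrays scaled to their medians and 48.8% with quantile normalisation, and the 4 Ttr probe sets were called higher in males under both.

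Males stood above females without overlap in 15 of 16 comparisons of sex within a genotype and diet. The 4 probe sets read the same RNA, so the 16 are not separate observations. How many of all probe sets are free of overlap in such comparisons was not counted for sex, genotype or diet. In normal mice on the control diet the male mean was 1.82 to 2.38 times the female mean, and all 4 probe sets were called, against 1.63% of probe sets higher in males there (adjusted p 0.000161 to 0.00559, limma). On the low phosphate diet normal males were 2.05 to 2.76 times as high as normal females, again with 4 of 4 called against 1.36% (adjusted p 1.16e-05 to 0.00119). Hyp mice on the low phosphate diet gave 1.76 to 2.34 times, with 4 of 4 called against 1.5% (adjusted p 0.00151 to 0.00797).

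Hyp mice on the control diet, the group pair with the brightest signals, showed the smallest sex ratio, 1.21 to 1.51 times. None of the 4 probe sets was called there, against 1.82% of probe sets called higher in males (limma, adjusted p 0.085 to 0.546), and 2 had an unadjusted p under 0.05. Males and females overlapped in 1455913_x_at, where females reached 12362 and males began at 11365. In 1451580_a_at the males read 15677, 22396 and 16449 and the females 12222, 10554 and 13219, with no overlap. The male minus female difference here minus that in normal mice on the control diet was -0.92 to -0.27 on the log2 scale. None of the 4 was called (limma, adjusted p 0.545 to 0.95), and 3 had an unadjusted p under 0.05. That in Hyp mice on the low phosphate diet minus that here was 0.39 to 0.83. Again none was called (limma, adjusted p 0.793 to 0.896), and 2 had an unadjusted p under 0.05. Shares over all probe sets are not given for these contrasts. The interactions over all 8 groups follow.

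The genotype by sex difference, the Hyp minus normal difference in males minus that in females, was -0.15 ± 0.17 (SE), -0.59 ± 0.17, -0.45 ± 0.21 and -0.61 ± 0.17 in 1451580_a_at, 1454608_x_at, 1455913_x_at and 1459737_s_at. None of the 4 was called by limma (adjusted p 0.452 to 0.924), and 3 had an unadjusted p under 0.05, against 0.0501% of all probe sets called. The 95% intervals together reached from -0.96 to 0.22. In signal units this difference was positive in all 4, from 3681 in 1455913_x_at to 5990.0 in 1454608_x_at.

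Diet by sex was 0.24 to 0.44 on the log2 scale over the 4 probe sets, with none called (limma, adjusted p 0.917 to 0.924) and 1 with an unadjusted p under 0.05. The 3-way difference of genotype, diet and sex was 0.11 ± 0.33 (SE) in 1454608_x_at and 0.87 ± 0.42 in 1455913_x_at, the smallest and largest of the 4, with none called by limma (adjusted p 0.999) and none with an unadjusted p under 0.05. No probe set on either chip was called for these 2 contrasts (0%). The intervals were wide, from -0.11 to 0.83 for diet by sex and from -0.61 to 1.75 for the 3-way difference.

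**Figure D3:**
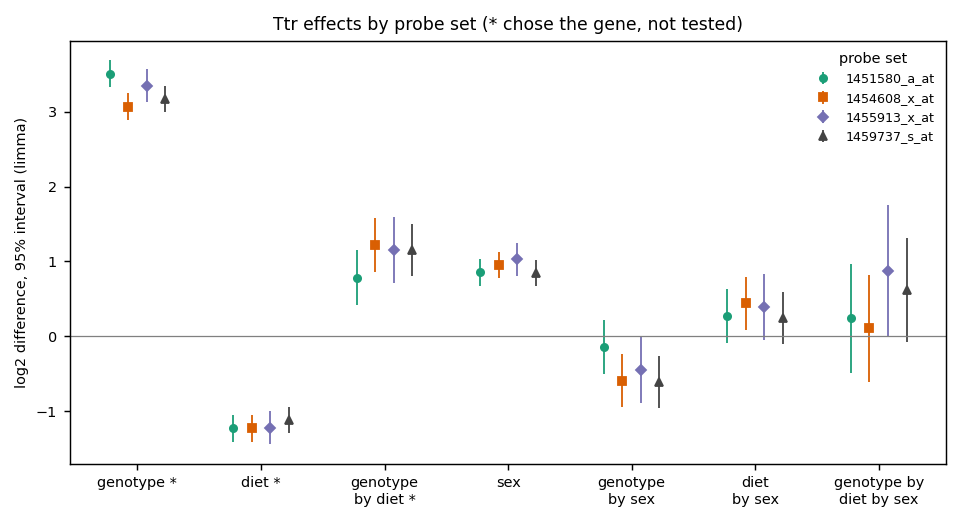
Ttr effects on the log2 scale (y axis, limma estimate with its 95% interval) for the 3 main effects and their interactions, 1 symbol per probe set; an asterisk marks contrasts that chose the gene and were not tested. Genotype lies between 3.07 and 3.51, sex between 0.85 and 1.03, and the 95% intervals for genotype by sex run from -0.96 to 0.22.

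How near the Ttr signals came to the top of the scale was read from each array. The highest signal of an array, over all its probe sets, was 30303 to 47504 on 430A and 21054 to 31019 on 430B. In Hyp pools 1454608_x_at stood at 20.9% to 79.2% of its array's highest signal, and as few as 7 other probe sets on the array were brighter. The 430B probe set stood at 34.7% to 90.9%, and in at least 1 pool no other probe set that was not a control was brighter. For 1451580_a_at the range was 13.6% to 64.0%, and for 1455913_x_at 8.80% to 40.8%. In normal pools the 4 probe sets stayed between 0.697% and 23.6%. No detection call or saturation flag was used here. Signals of different probe sets are not comparable as amounts of RNA, so only their place on the array and the change of their ratios between pools are given.

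The ratio of the brightest probe set to each of the others was lower in Hyp than in normal pools on average, by unequal amounts. The log2 ratio of 1454608_x_at to 1455913_x_at was 0.28 lower in Hyp pools (SD within genotypes 0.16), and all 12 Hyp pools lay below the normal mean. Against 1451580_a_at it was 0.44 lower (SD 0.29), with 11 of 12 Hyp pools below the normal mean and 5 below every normal pool. Against 1459737_s_at, the other probe set close to its array's top, it was 0.10 lower (SD 0.18), with 8 of 12 below the normal mean and 0 below every normal pool. Females on the low phosphate diet did not share this. Their mean log2 ratios in Hyp and normal pools were 0.93 and 0.89 against 1451580_a_at (n = 3 each). They were 1.22 and 1.21 against 1455913_x_at, and 0.21 and 0.16 against 1459737_s_at. These mean differences in ratio restate the genotype differences given above, of which that of 1454608_x_at, 3.07, was the smallest of the 4. They are no separate observation, and the genotype contrast chose the gene. Flattening of the signal at high levels was not tested.

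**Figure D4:**
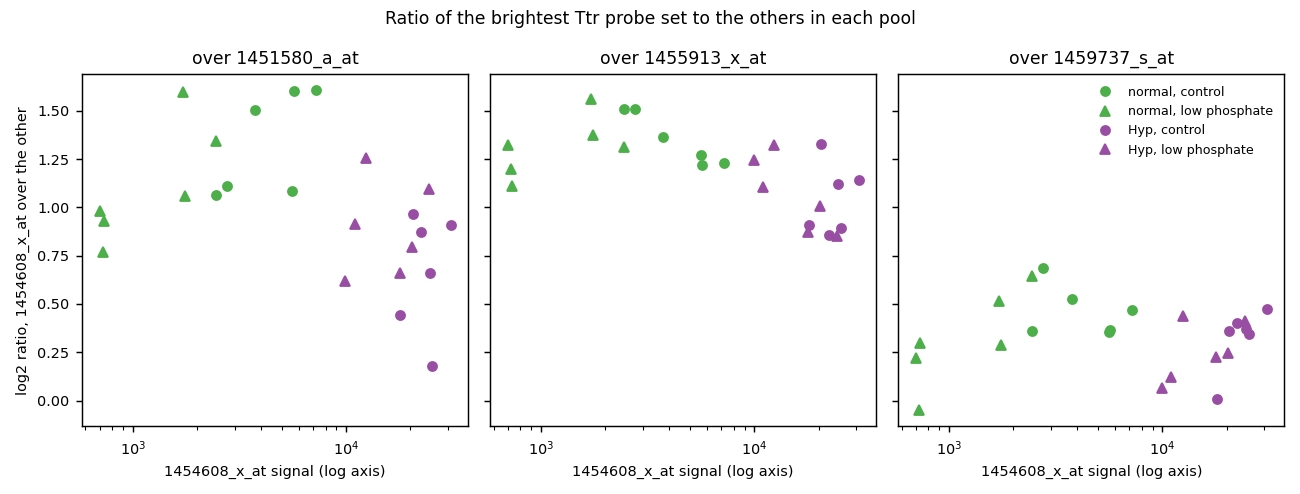
Log2 ratio of the brightest Ttr probe set to each of the others (y axis) against its own signal (x axis, log scale) in the 24 pools, green normal and purple Hyp, circles control and triangles low phosphate diet. Averaged over diets and sexes, the ratio is lower in Hyp pools by 0.44 against 1451580_a_at, 0.28 against 1455913_x_at and 0.10 against 1459737_s_at. In females on the low phosphate diet it is not lower in Hyp.

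The probe sets followed each other closely over all pools and less closely within groups. Over the 24 pools, which differ mostly by genotype, Pearson's r between their log2 signals was 0.985 to 0.996 for every pair. With the mean of each group taken off, r was 0.88 between 1454608_x_at and 1455913_x_at, 0.68 and 0.73 between these and 1459737_s_at on the other chip, and 0.19 to 0.45 between 1451580_a_at and the other 3. Pools of a group that read high for the mean of the 430A probe sets also read high on the separate 430B array (r = 0.76, 24 pools). Any factor shared by same-numbered pools of different groups was not taken off. One pool shows how the probe sets split. The second Hyp male pool on the control diet read 22396 in 1451580_a_at, the highest of its group, but 25361 in 1454608_x_at, the middle of its group.

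Genes whose pattern was most like that of Ttr were found among 12832 others by Pearson's r with the mean log2 Ttr signal over the 24 pools. These points share genotype, diet and sex, so r is a description with no test. Slc13a1, the sulfate transporter of the proximal tubule, came first (r = 0.90), with a genotype difference of 0.93 ± 0.06 (SE) on the log2 scale and a diet difference of -0.31 ± 0.06. Cyp24a1, the enzyme that inactivates vitamin D, reached r = 0.85, after Methig1 at 0.86, with a genotype difference of 1.88 ± 0.14 but a diet difference of -0.13 ± 0.14. Gulo, which makes the last step of vitamin C synthesis, reached r = 0.84 with 2.43 ± 0.21 for genotype and -0.54 ± 0.21 for diet. Their male minus female differences were -0.10 ± 0.06, 0.04 ± 0.14 and -0.33 ± 0.21. By sign alone, 8 of the 10 most alike genes were higher in males than in females, and the sex differences ran from -0.33 to 0.49. Those called higher in males were Methig1, Ppp1r16b, Fahd2a, Tmem252 and Tcf24 (limma, adjusted p under 0.05), against 7.4% of all genes. The Ttr pattern behind r holds its own sex difference, so nothing is read from these signs.

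Tmem252 was the gene among the 10 most alike with the widest diet difference, -1.48 ± 0.11 (SE), beside 1.39 ± 0.11 for genotype and 0.49 ± 0.11 for sex, which gave r = 0.81. Methig1, Ppp1r16b, a regulatory subunit of a protein phosphatase (r = 0.84), Selenoo, a mitochondrial selenoprotein (0.82), Fahd2a (0.82), Dusp4, a phosphatase of MAP kinases (0.81), and Tcf24 (0.81) made up the rest of the 10. At the other end stood Slc34a3, the type IIc phosphate transporter (r = -0.91), Msn, the membrane linker moesin (-0.90), Car14, a membrane-bound carbonic anhydrase (-0.89), Slc5a2, the main glucose transporter of the early proximal tubule (-0.88), and Dnase1 (-0.86). Dnase1 was lower in Hyp by 2.08 ± 0.10 (SE) on the log2 scale. None of these 15 genes changed as widely between genotypes as Ttr did, but Ttr was chosen by that difference, so nothing is read from this.

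**Figure D5:**
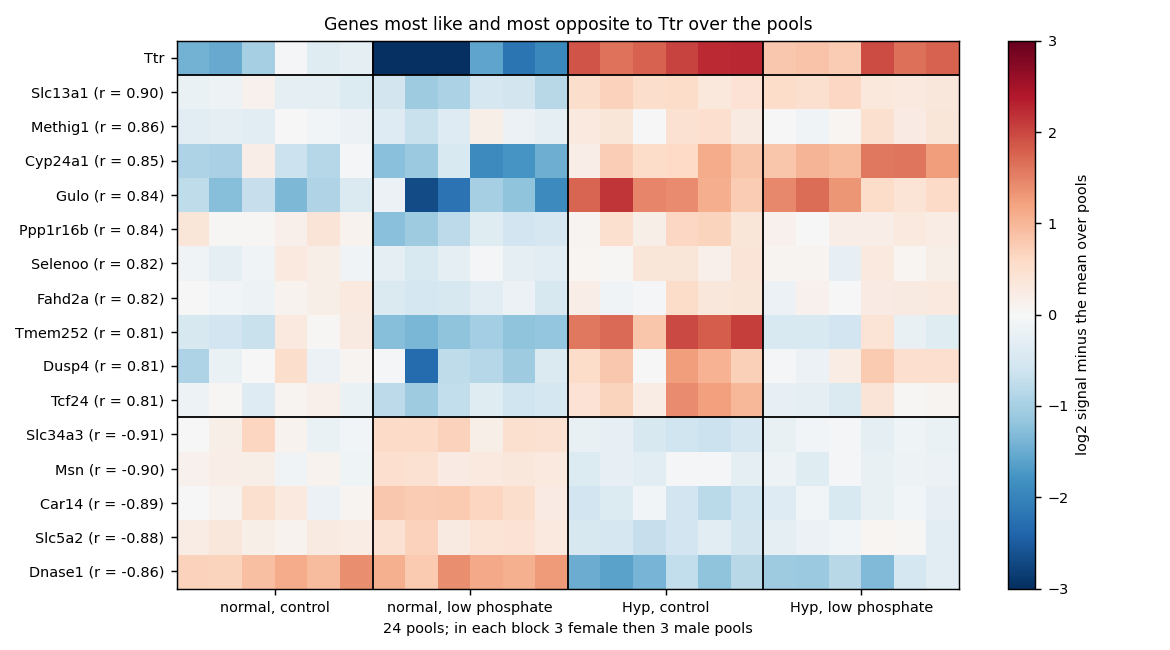
Log2 signal minus the gene's mean over pools (colour) for Ttr and the 10 genes most like it (above the lower line) and 5 most opposite to it (below), with Pearson's r over 24 pools; columns are pools in 4 blocks of genotype and diet, 3 females then 3 males in each. Slc13a1 (r = 0.90) and Slc34a3 (r = -0.91) mark the ends. Colours for Ttr, which was chosen by its genotype and diet differences, reach the limit of the scale.

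From pool to pool inside the groups, the genes with the highest r were a different set. They are the top 10 of 12832 genes ranked by that r, so it is a description with no test. How high the top r of so many genes would reach by chance was not worked out, so nothing is read from their place at the top. Nor was any factor shared by same-numbered pools of different groups taken off. With group means taken off, the highest r were those of Dazap2 (0.78), Avpi1, an early vasopressin-induced gene (0.78), Sra1 (0.75), Rcn2 (0.73), Fbxo8 (0.72), Car4, a carbonic anhydrase on tubule membranes (0.72), Ankmy2 (0.71), Glul, glutamine synthetase (0.71), Atp5j2 (0.71) and Mterf3 (0.70). All 10 are on the 430A chip, as are 3 of the 4 Ttr probe sets, so they share arrays with them. Against the 430B probe set of Ttr alone, on other arrays, r was 0.86 for Car4, 0.79 for Sra1 and 0.45 to 0.65 for the other 8. Car4 differed by genotype in the direction opposite to Ttr, -0.38 ± 0.08 (SE), and by diet in the opposite direction too, 0.69 ± 0.08. By sex it was higher in males, like Ttr, by 0.76 ± 0.08 (adjusted p 1.14e-06, limma).

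None of the 4 tested neighbours of Ttr on chromosome 18 was called by genotype (limma; 1 at an unadjusted p under 0.05). Of all genes only 1.14% were called higher and 1.07% lower in Hyp, so nothing is read from this count. Dsg2, a desmosomal cadherin on one side, differed by 0.27 ± 0.11 (SE) on the log2 scale between Hyp and normal (adjusted p 0.353, limma), and B4galt6, a galactosyltransferase on the other side, by 0.07 ± 0.06 (adjusted p 0.806). Trappc8 differed by 0.08 ± 0.07 and Gm31437 by 0.55 ± 0.26, neither called (adjusted p 0.817 and 0.496, limma). By sex Dsg2 and B4galt6 ran against Ttr, lower in males by 0.98 ± 0.11 and 0.40 ± 0.06 (adjusted p 1.48e-06 and 6.95e-05, limma). Of all genes 11.1% were called lower in males. Dsg1a and Dsg1b did not pass the filter on dim probe sets.

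The partners and pathways of transthyretin were then followed through gene lists, with each gene read from its brightest kept probe set and 12833 genes in all. The lists hold 139 genes, of which 120 are on the chips and 67 passed the filter. In these 67 genes 6 were called higher and 6 lower in Hyp, against 1.14% and 1.07% of all genes. With low phosphate feeding 3 were called higher and 3 lower, against 0.483% and 0.429%. In males 12 were higher and 15 lower than in females, against 7.4% and 11.1%. For genotype by diet none was called by limma, against 0.0234% of all genes, and 3 had an unadjusted p under 0.05. These shares of all genes also stand beside the calls of each list below. Of the 27926 probe sets, an unadjusted p under 0.05 was reached by 2870 for genotype and 2615 for diet. For genotype by diet it was reached by 1552, and for sex by 7400. Those counts are of probe sets, while the lists count genes. The lists were made up with results of these data known, so their counts are no independent support.

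Other plasma carriers and the uptake receptors showed no genotype call (limma). Of 6 members tested, 0 were called by genotype and 1 had an unadjusted p under 0.05. Their median genotype difference was -0.06, beside -0.01 over all genes. Lrp2, the megalin receptor that takes up filtered transthyretin, was bright, at 8327 to 12774, and differed by -0.06 ± 0.05 (SE; adjusted p 0.776, limma). Cubn and Amn, which form the partner receptor cubam, differed by -0.02 ± 0.05 and -0.05 ± 0.06. Rbp4, the retinol carrier that travels with transthyretin in plasma, was dim and not tested, at 83.3 to 206.6 and above its array's median in 1 of 24 pools; its means were 132.2 ± 28.3 in normal and 134.0 ± 38.9 in Hyp pools (SD, n = 12 each). Alb, the main plasma protein made by liver, fell by 0.78 ± 0.16 on the low phosphate diet (adjusted p 0.0151, limma; 0.056 without the filter on dim probe sets) and differed by 0.28 ± 0.16 between genotypes (adjusted p 0.586).

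By sex, 1 carrier or uptake gene was higher in males and 3 were lower. Cubn was lower in males by 0.52 ± 0.05 (SE; adjusted p 3.57e-07, limma), and Lrp2 by 0.28 ± 0.05 (adjusted p 0.000429). Amn was higher by 0.23 ± 0.06 (adjusted p 0.00791). Alb was lower by 0.52 ± 0.16 (adjusted p 0.0284), a call that ended without the filter (0.0644), with median scaling (0.0916) or quantile normalisation (0.0798) and without any 1 of 4 of the 24 pools. These were the second normal male and the third Hyp male on the control diet, and the third normal female and the third Hyp female on the low phosphate diet.

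Among genes of vitamin A handling, 1 of 9 tested was called by genotype. Aldh1a1, which turns retinal into retinoic acid, rose by 0.91 ± 0.13 in Hyp (SE; adjusted p 0.000315, limma), and the median of the 9 was 0.08. No member was called by diet, with 2 at an unadjusted p under 0.05. By sex Rdh10, which oxidises retinol, was higher in males by 0.69 ± 0.10 (adjusted p 4.22e-05) and Rarb, a retinoic acid receptor, was lower by 0.30 ± 0.06 (adjusted p 0.00152). Stra6, the membrane receptor for retinol-binding protein, was not tested: it read 10.7 to 265.7, above the array's median in 2 pools.

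Of 10 thyroid hormone genes tested, 1 was called by genotype and none by diet (limma; 4 at an unadjusted p under 0.05 in each). Of all 27926 probe sets, 2870 and 2615 had an unadjusted p under 0.05 for these contrasts. Slco4c1, a basolateral transporter of thyroid hormones and other organic anions, was higher in Hyp by 0.77 ± 0.18 (SE; adjusted p 0.0331). That call ended in 15 of the 24 fits that left out 1 pool, without the filter (0.0677) and with p-values adjusted within each chip (0.0996). Slco4c1 was also higher in males, by 1.69 ± 0.18 (adjusted p 1.43e-06), as was Me1, malic enzyme and a classic thyroid hormone target, by 1.14 ± 0.06 (2.35e-12). Dio1, the deiodinase that converts thyroxine to its active form, was lower in males by 1.80 ± 0.09 (adjusted p 3.64e-12). Serpina7, the other plasma carrier of thyroxine, read 0.5 to 25.9 and was not tested.

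The transcription factors that drive Ttr in liver were dim or not called by genotype. Hnf4a differed by -0.13 ± 0.05 (SE), Cebpa by -0.17 ± 0.06 and Cebpb by -0.02 ± 0.09 between Hyp and normal, none called (limma, adjusted p 0.358, 0.211 and 0.975; 2 at an unadjusted p under 0.05). By sex Cebpa was lower in males by 0.46 ± 0.06 (adjusted p 7.35e-06) and Cebpb higher by 0.41 ± 0.09 (adjusted p 0.00343). Foxa2 read 17.2 to 155.9, never above its array's median, and was not tested.

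Markers of other cell types were read beside Ttr, since liver and other tissues make it. Of 21 hepatocyte genes, 19 are on the chips and 9 were tested; 1 was called by genotype, Apob, higher in Hyp by 0.48 ± 0.12 (SE; adjusted p 0.0463, limma). This call ended in 18 of the 24 fits that left out 1 pool and without the filter (0.121). The summed hepatocyte signal was 6892 to 8592 in normal pools on the control diet, 6769 to 8875 in normal pools on the low phosphate diet, 7314 to 10440 in Hyp pools on the control diet and 7724 to 10600 in Hyp pools on the low phosphate diet. The members were unequal in level. Kng1 (2739 to 5749), Apob (779.6 to 2243) and Apoc3 (272.8 to 748.8) were above the array's median in all 24 pools, Apoa2 in 23 and Alb (159.6 to 1054) in 22. Ahsg, a secreted glycoprotein of liver, read 5.4 to 32.4 and Cps1, a urea cycle enzyme, 62.5 to 182.6, above the array's median in no pool. No listed marker was at 0 in any pool. The median genotype difference of the 9 tested was 0.18, beside differences of 3.07 to 3.51 for Ttr.

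By sex, 2 hepatocyte genes were higher in males and 3 lower. Serpina1b, an antitrypsin gene with near-identical copies that the probes may not tell apart, was higher in males by 3.71 ± 0.44 (SE; adjusted p 2.85e-06, limma), and Apoh, a plasma apolipoprotein, by 2.23 ± 0.30 (1.6e-05). Kng1, kininogen, was lower by 0.53 ± 0.05 (2.26e-07). Apoa2 was lower by 0.43 ± 0.12 (0.0188), a call that ended with median scaling (0.116) or quantile normalisation (0.0756). By diet Apoc3 was higher on the low phosphate diet by 0.56 ± 0.09 (adjusted p 0.00214) and Alb was lower, as given above.

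Among acute phase genes, a class whose liver output moves opposite to that of transthyretin in inflammation, 1 of 4 tested was called by genotype and 3 had an unadjusted p under 0.05. The median genotype difference of the 4 was 0.48, beside -0.01 over all genes. Fga, the fibrinogen alpha chain, was higher in Hyp by 0.47 ± 0.11 (SE; adjusted p 0.0228, limma), a call that ended without the filter (0.0658) and without the third Hyp male pool on the low phosphate diet (0.0506). Fgg, the gamma chain, at 0.54 ± 0.15 (adjusted p 0.0941), and Cp, ceruloplasmin, at 0.26 ± 0.08 (0.11), were not called. Fgb, the other fibrinogen chain, was not tested: it averaged 5.97 ± 2.83 in normal and 41.8 ± 36.0 in Hyp pools (SD, n = 12 each), never above the array's median. Saa1, Saa2, Saa3 and Hp stayed at or below 142.0 in all pools. By sex Cp was lower in males by 0.54 ± 0.08 (SE; adjusted p 2.69e-05, limma).

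Pancreas, adrenal, blood, fat and choroid plexus markers were read the same way. The summed signal of 9 pancreas genes was 236.8 to 591.8 in normal and 346.5 to 767.0 in Hyp pools, and Gcg, glucagon, stayed at or below 41.0. Of 4 adrenal genes tested 0 were called by genotype (limma; 0 at an unadjusted p under 0.05), with sums of 3287 to 4821 in normal and 3407 to 4620.0 in Hyp pools. Blood sums were 763.8 to 1183 in normal and 926.6 to 1245 in Hyp pools, and 1 of 3 genes tested, Slc4a1, the anion exchanger of red cells and of collecting duct cells, was higher in Hyp by 0.42 ± 0.09 (SE; adjusted p 0.012, limma). Fat sums were 1789 to 3762 in normal and 1096 to 1860.0 in Hyp pools, and most of that difference lay in 1 gene. Car3, a carbonic anhydrase of fat and muscle, averaged 2146 ± 747 in normal and 764.4 ± 195 in Hyp pools (SD, n = 12 each) and was lower in Hyp by 1.45 ± 0.12 (SE; adjusted p 2.5e-07, limma). The fat hormones Adipoq and Retn differed by 0.17 ± 0.16 and -0.10 ± 0.09, neither called (adjusted p 0.827 and 0.809, limma). By sex Adipoq and Retn were lower in males by 0.63 ± 0.16 and 0.52 ± 0.09 (adjusted p 0.0102 and 0.000223, limma). Car3 was higher in males by 0.48 ± 0.12 (0.00946). Choroid plexus sums were 18930 to 25170.0 in normal and 15310 to 21400 in Hyp pools and are mostly made up of genes that kidney itself expresses, such as Kl, the FGF23 co-receptor of the distal tubule, which was lower in Hyp by 0.69 ± 0.08 (SE; adjusted p 8.99e-06). Kl was higher on the low phosphate diet by 0.47 ± 0.08 and in males by 0.35 ± 0.08 (adjusted p 0.00247 and 0.0029, limma). The part of these cell types in the Ttr differences was not tested.

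Among 12 kidney segment genes tested, 1 was called higher and 4 lower in Hyp. Slc12a3, the thiazide-sensitive transporter of the distal tubule, was higher by 0.50 ± 0.05 (SE; adjusted p 2.53e-06, limma). Slc5a2 was lower by 0.64 ± 0.06 (1.67e-06), Slc34a1 by 0.30 ± 0.06 (0.00952) and Slc22a6, an organic anion transporter of the proximal tubule, by 0.23 ± 0.05 (0.0149). Calb1, the calcium-binding protein of the distal tubule, was lower by 0.33 ± 0.08 (0.0241). With arrays scaled to their medians the calls of Slc34a1 (0.0777), Slc22a6 (0.0747) and Calb1 (0.0848) ended. That of Calb1 also ended without the filter (0.0635), without the second Hyp male pool on the low phosphate diet (0.052) and without the third normal female pool on the control diet (0.0511). By diet Calb1 was lower on the low phosphate diet by 0.77 ± 0.08 (adjusted p 5.74e-06, limma). Slc22a6 was lower there by 0.23 ± 0.05 (0.0359) and Slc5a2 higher by 0.30 ± 0.06 (0.0231). Those 2 diet calls ended without the filter (0.0756 and 0.0616) and in 19 and 6 of the 24 fits that left out 1 pool. The median genotype difference of the 12 was -0.08 and the segment sums overlapped between genotypes, at 75860.0 to 88780.0 in normal and 73860.0 to 83200.0 in Hyp pools. By sex 2 segment genes were called higher in males and 5 lower. Slc22a6 was higher in males by 1.23 ± 0.05 (adjusted p 1.43e-13, limma). Slc12a3 was lower by 0.29 ± 0.05 (0.000237) and Scnn1g by 0.39 ± 0.09 (0.00722). These calls of Slc12a3 (0.0616) and Scnn1g (0.0552) ended with median scaling.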

How the data were processed

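The authors deposited signal intensity values for each probe set of the 430A and 430B chips; the submitters' processing notes name GCOS 1.2, and the expression algorithm is not given in the sources used here. On every array the trimmed mean of the 100 probe sets shared by the chips was 1200, so the intensity values were already scaled. Probe sets took symbols from the platform table, updated by identifier (34837 of 45137 matched). Signals were floored at 1 and log2-transformed; a probe set was kept if above its array's median on at least 3 of 24 arrays (12924 on 430A, 15002 on 430B). limma 3.58.1 in R 4.3.3 fitted 8 group means per chip with empirical Bayes, and Benjamini-Hochberg adjustment ran over both chips. The fit was tested on simulated data. Contrasts weight groups equally.

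Ttr was chosen, and the gene lists written, with earlier results of these data known. Named genes are, in each list, up to 4 called members with the smallest adjusted p per contrast, members bearing on transthyretin, the 10 genes most and 5 least correlated with Ttr over pools, the 10 most correlated within groups, and the neighbouring genes; Apoa2, Fgb, Ahsg, Cps1, Gcg, Serpina7, Fgg, Adipoq, Retn and the Saa genes were added to show levels. Alternatives were another offset (16), no filter, median and quantile scaling, adjustment within chips, 1 probe set per gene, a replicate block, leaving out each pool, and signal units. No sequence is shown.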

Additional observations from a re-analysis of the deposited data

How the results depend on the processing

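Ttr stayed called higher in males in 4 of 4 probe sets, and uncalled for genotype by sex, diet by sex and the 3-way difference. This held in all 24 fits that left out 1 pool (4 to 4 and 0 to 0 called). It also held under no filter, an offset of 16, median scaling, quantile normalisation and adjustment within each chip. With 1 probe set per gene, 1 Ttr probe set is tested and 1 was called. The adjusted p for sex lay between 2.2e-08 and 1.09e-05 over these alternatives and probe sets (limma). Without the filter, 3 list genes were called by diet in place of 6. The 3-way difference in 1454608_x_at, 0.11, ranged from -0.026 to 0.28 with 1 pool left out and turned negative without the first normal male pool on the control diet (-0.012), the first Hyp male pool on the low phosphate diet (-0.012) or the second normal female pool on the control diet (-0.026). In signal units, an alternative chosen after seeing the data, genotype by diet was -5250.0, -4435, -2258 and -3107 for 1451580_a_at, 1454608_x_at, 1455913_x_at and 1459737_s_at, genotype by sex was 5182, 5990.0, 3681 and 3729, and diet by sex in 1451580_a_at was -587.5, each with the sign opposite to log2. The labels give series numbers with no statement of what they share, so the main fit does not take the pools as paired. Deviations of same-numbered pools correlated above 0.1 in 32 of 84 pairs on 430A and 0 of 84 on 430B, against 8 and 0 of 168 pairs with different numbers, with mean r of 0.062 and 0.023 against -0.031 and -0.012. On these chips 15 and 22 of 24 pools correlated best with their own number, out of 3 numbers. This is a hint of a shared factor from the data and not from the design, and the main fit leaves such a factor out. With the replicate block Ttr was called in 4 of 4 probe sets by sex and in 0 for the interactions, and 14 list genes were called by genotype (12 without the block), 6 by diet (6), 28 by sex (27) and 0 by genotype by diet (0). Without detection calls, levels near the bottom of the scale have no stated limit.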
